A study of Mus musculus with 15 samples.

Results

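Histidine decarboxylase (Hdc), the enzyme that makes histamine, and 7 further genes used as marks of mast cells (Cpa3, Cma1, Mcpt4, Tpsb2, Kit, Ms4a2 and Fcer1a) were followed through carotid arteries of mice with and without ligation. The 8 genes were taken by symbol from the probe sets that carry exactly 1 gene symbol, and they are 8 of 22180 genes measured. Each of them has 1 probe set. They were selected on their log2 values in these same 4 groups, with earlier results of the arrays known, so their differences between the groups are descriptions and not tests.

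Expression arrays of 4 groups were made, all from female mice of 21 to 22 weeks on the C57Bl/6J strain, with arteries taken 5 days after the left common carotid artery was tied off to induce neointimal growth. They were ligated arteries of Has3-deficient mice (n = 3, replicates 3, 5 and 6), ligated arteries of wildtype mice (n = 4), non-ligated arteries of Has3-deficient mice (n = 4) and non-ligated arteries of wildtype mice (n = 4). Has3 is one of the enzymes that make hyaluronan, a sugar polymer of the extracellular matrix. The labels name neither the Has3 allele nor the animal behind each array, so all errors measure the spread between these arrays, which may be technical. The number of arrays limits the precision.

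The Has3 probe set itself averaged -0.05 ± 0.17 in Has3-deficient ligated arteries (SD, n = 3), 0.16 ± 0.29 in wildtype ligated, 0.12 ± 0.24 in Has3-deficient non-ligated and 0.03 ± 0.13 in wildtype non-ligated arteries (SD, n = 4 each). It did not separate the genotypes. Whether its probes lie inside the deletion could not be settled, so it checks nothing and the genotype follows the labels. Values are log2 values that were centred on the median of each probe set over the 15 arrays, so a value of 0 is that gene's own median. Levels were lost in this step: neither the abundance of one gene against another nor the presence of mast cells can be read from them. In whole arteries, fewer cells of a type and less RNA per cell cannot be told apart.

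Mast cells lie in the outer layer of arteries and in the tissue around them, where they store histamine, proteases and heparin in granules and release them when the high-affinity IgE receptor or other receptors are engaged. Their growth depends on Kit, the receptor for stem cell factor. Histamine is not theirs alone: in the mouse, Hdc is also expressed by basophils and by neutrophils and other myeloid cells.

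On assembly GRCm38.p6, Hdc lies at chr2:126593659-126624025, Cpa3 at chr3:20215616-20242209, Cma1 at chr14:55941451-55944675 and Mcpt4 at chr14:56059744-56062310. Tpsb2 lies at chr17:25366308-25368096, Kit at chr5:75574987-75656722, Ms4a2 at chr19:11615517-11623790 and Fcer1a at chr1:173221269-173227232. The 250 bases before the start are shown for Hdc, which changed with ligation, and for 3 granule protease genes that moved together, all from RefSeq on GRCm38.p6. They are chr2:126618679-126618928 for Hdc, chr3:20242182-20242431 for Cpa3, chr14:55944676-55944925 for Cma1 and chr14:56062311-56062560 for Mcpt4. All are on the minus strand and are written 5′ to 3′ in the direction of the gene. The starts are those of the promoter table's entries. For Hdc and Cpa3 that start lies inside the gene span given above. The whole stretch shown for Hdc lies inside its span. For Cpa3 only the bases nearest the start do, and the rest precede the outer end of the span. Capitals mark matches to a GATA hexamer.
Hdc: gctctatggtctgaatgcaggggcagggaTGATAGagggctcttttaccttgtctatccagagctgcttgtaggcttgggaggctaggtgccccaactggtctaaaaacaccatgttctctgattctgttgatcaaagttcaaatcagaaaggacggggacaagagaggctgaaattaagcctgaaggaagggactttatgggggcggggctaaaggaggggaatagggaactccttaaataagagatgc
Cpa3: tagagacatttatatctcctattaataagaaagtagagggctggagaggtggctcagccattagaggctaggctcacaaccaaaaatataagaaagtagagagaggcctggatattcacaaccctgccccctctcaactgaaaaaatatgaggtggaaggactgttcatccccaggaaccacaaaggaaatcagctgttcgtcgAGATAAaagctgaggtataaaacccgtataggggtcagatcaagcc
Cma1: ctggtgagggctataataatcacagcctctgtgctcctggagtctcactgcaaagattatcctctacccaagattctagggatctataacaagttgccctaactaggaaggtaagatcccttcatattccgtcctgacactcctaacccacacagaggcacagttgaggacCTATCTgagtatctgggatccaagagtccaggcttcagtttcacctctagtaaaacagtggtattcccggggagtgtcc
Mcpt4: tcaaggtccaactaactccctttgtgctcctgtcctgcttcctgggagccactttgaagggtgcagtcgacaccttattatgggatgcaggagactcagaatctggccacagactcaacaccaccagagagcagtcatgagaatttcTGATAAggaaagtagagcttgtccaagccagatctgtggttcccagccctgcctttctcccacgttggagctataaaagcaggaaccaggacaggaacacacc
The search covered AGATAA and the hexamer AGATAG, and with another first letter the hexamer TGATAA and the hexamer TGATAG, all on both strands. Of 7 members with a promoter entry, 6 held at least 1 match in these 250 bases, and Kit held none. Of 32851 promoters of the same length, 26.5% held one. The short motifs known as E-box, AP-1, C/EBP and TATA were searched too. An E-box lay in Hdc, Cpa3, Cma1 and Fcer1a (66.2% of all promoters), and TATA in Cpa3, Mcpt4 and Fcer1a (7.59%). C/EBP lay in Fcer1a alone (9.56%), and AP-1 in no member (6.75%). Relative to the start, the GATA match lay at positions -46 to -41 in Cpa3 and -221 to -216 in Hdc. Gata2, which binds GATA hexamers, is among the transcription factors described below. A match of letters is a description and shows no binding.

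Hdc was high in every ligated artery and low in every non-ligated one. It stood at 3.44, 2.98 and 2.98 in the Has3-deficient ligated arrays and at 3.64, 3.24, 2.97 and 2.38 in the wildtype ligated arrays. In the Has3-deficient non-ligated arrays it stood at -1.35, -1.35, -0.73 and 0, and in the wildtype non-ligated arrays at -0.92, -1.52, -1.47 and -1.50. The lowest ligated array thus lay above the highest non-ligated one in both genotypes. The change on ligation was 3.99 ± 0.33 log2 units (± standard error) in Has3-deficient arteries, a 15.9-fold rise, and 4.41 ± 0.30 in wildtype arteries, a 21.3-fold rise. The genotypes overlapped within each state. The difference of the Has3-deficient from the wildtype arteries was 0.08 ± 0.33 with ligation and 0.50 ± 0.30 without it, and the ligation responses differed by -0.42 ± 0.44.

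**Figure D1:**
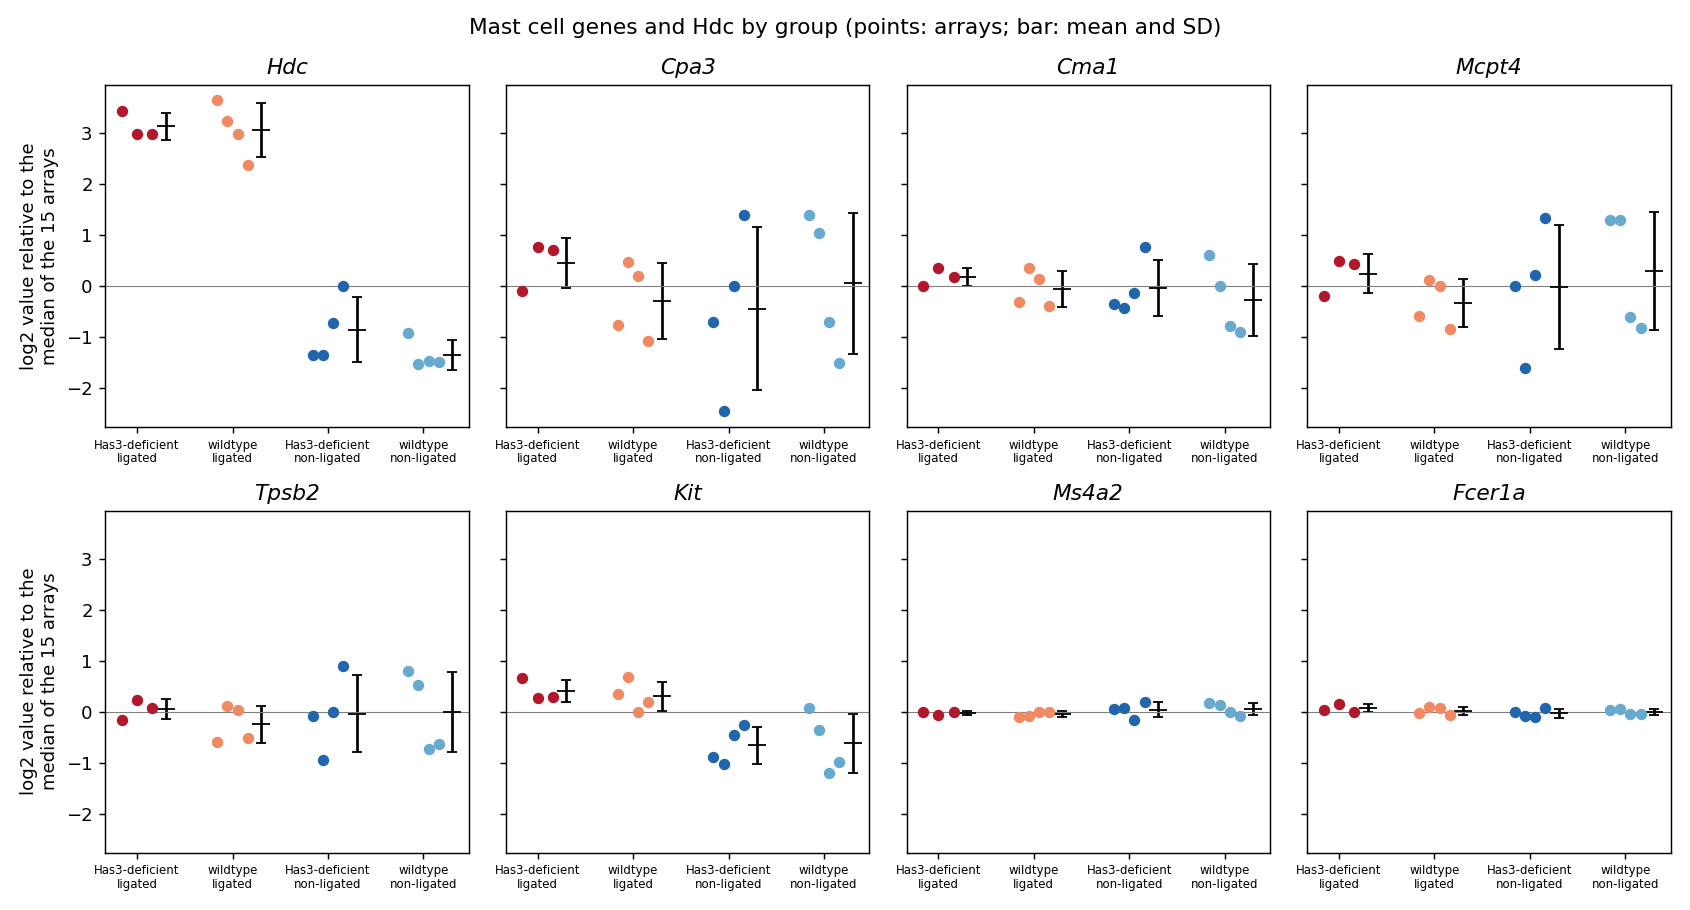
The log2 value of each of the 8 genes, relative to its median over 15 arrays, in Has3-deficient ligated, wildtype ligated, Has3-deficient non-ligated and wildtype non-ligated arteries. Points are arrays, and the bars beside them give the mean and SD. Hdc lies between 2.38 and 3.64 in ligated arteries and between -1.52 and 0 in non-ligated ones, while the granule proteases overlap between all groups.

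The granule proteases did not follow Hdc. Cpa3, the mast cell carboxypeptidase, stood at -0.10, 0.77 and 0.70 in Has3-deficient ligated arrays and at -0.77, 0.47, 0.19 and -1.07 in wildtype ligated arrays. It stood at -0.71, -2.46, 0 and 1.39 in Has3-deficient non-ligated arrays and at 1.39, 1.03, -0.71 and -1.51 in wildtype non-ligated arrays. The widest spread was between arrays of the same non-ligated group, and all 4 groups overlapped. The change on ligation was 0.90 ± 0.82 in Has3-deficient and -0.34 ± 0.76 in wildtype arteries, so the standard error was nearly as large as the change in Has3-deficient arteries and larger in wildtype arteries.

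Mcpt4, a chymase of connective tissue mast cells, stood at -0.19, 0.49 and 0.43 in Has3-deficient ligated arrays and at -0.59, 0.11, 0 and -0.85 in wildtype ligated arrays. It stood at 0, -1.61, 0.21 and 1.33 in Has3-deficient non-ligated and at 1.30, 1.28, -0.60 and -0.82 in wildtype non-ligated arrays. Within each group the arrays highest and lowest in Cpa3 were also the highest and lowest in Mcpt4. Its change on ligation was 0.26 ± 0.63 in Has3-deficient and -0.62 ± 0.59 in wildtype arteries.

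Tpsb2, a tryptase, ranged from -0.16 to 0.23 in Has3-deficient ligated, from -0.59 to 0.11 in wildtype ligated, from -0.95 to 0.89 in Has3-deficient non-ligated and from -0.72 to 0.80 in wildtype non-ligated arrays. Cma1, the mast cell chymase, ranged from 0 to 0.36, from -0.39 to 0.35, from -0.44 to 0.76 and from -0.91 to 0.61 in the same 4 groups. Both overlapped throughout. The change of Tpsb2 was 0.08 ± 0.42 in Has3-deficient and -0.23 ± 0.38 in wildtype arteries, and that of Cma1 was 0.22 ± 0.35 and 0.22 ± 0.32.

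Genes of fat broadly moved with the proteases among non-ligated arrays, but not among wildtype ligated arrays. The mean of 12 fat genes was highest in Has3-deficient non-ligated replicate 4 (1.73) and wildtype non-ligated replicate 1 (1.61), where Cpa3 stood at 1.39 in each. It was lowest among non-ligated arrays in Has3-deficient replicate 2 (-0.56), where Cpa3 was lowest too. Among wildtype non-ligated arrays it was lowest in replicate 3 (-0.40), whereas Cpa3 was lowest in replicate 4. Among wildtype ligated arrays it was highest in replicate 4 (0.10), where Cpa3 was lowest (-1.07). It was -1.11 in wildtype ligated replicate 2, where Cpa3 was highest (0.47). Over the groups the fat mean ran from -0.34 to 0.43 in Has3-deficient ligated, from -1.28 to 0.10 in wildtype ligated, from -0.56 to 1.73 in Has3-deficient non-ligated and from -0.40 to 1.61 in wildtype non-ligated arrays. With the fat mean and a neuronal mean as covariates in the fit, the change on ligation in wildtype arteries was 0.84 for Cpa3, 0.30 for Mcpt4 and 0.41 for Tpsb2, above 0 where it lay below 0 without them. That of Hdc was 4.08 in Has3-deficient and 4.63 in wildtype arteries in the same fit.

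A mean of 11 neuronal genes exceeded 1 in 4 non-ligated arrays, namely Has3-deficient replicates 1, 3 and 4 and wildtype replicate 2, with 4.45 as the highest value. Without these 4 arrays only replicate 2 remained in the Has3-deficient non-ligated group. The change of Cpa3 in Has3-deficient arteries was then 2.92, that of Mcpt4 1.86 and that of Tpsb2 0.99, each against the single array lowest in Cpa3. Hdc rose by 4.48 in the same setting.

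**Figure D2:**
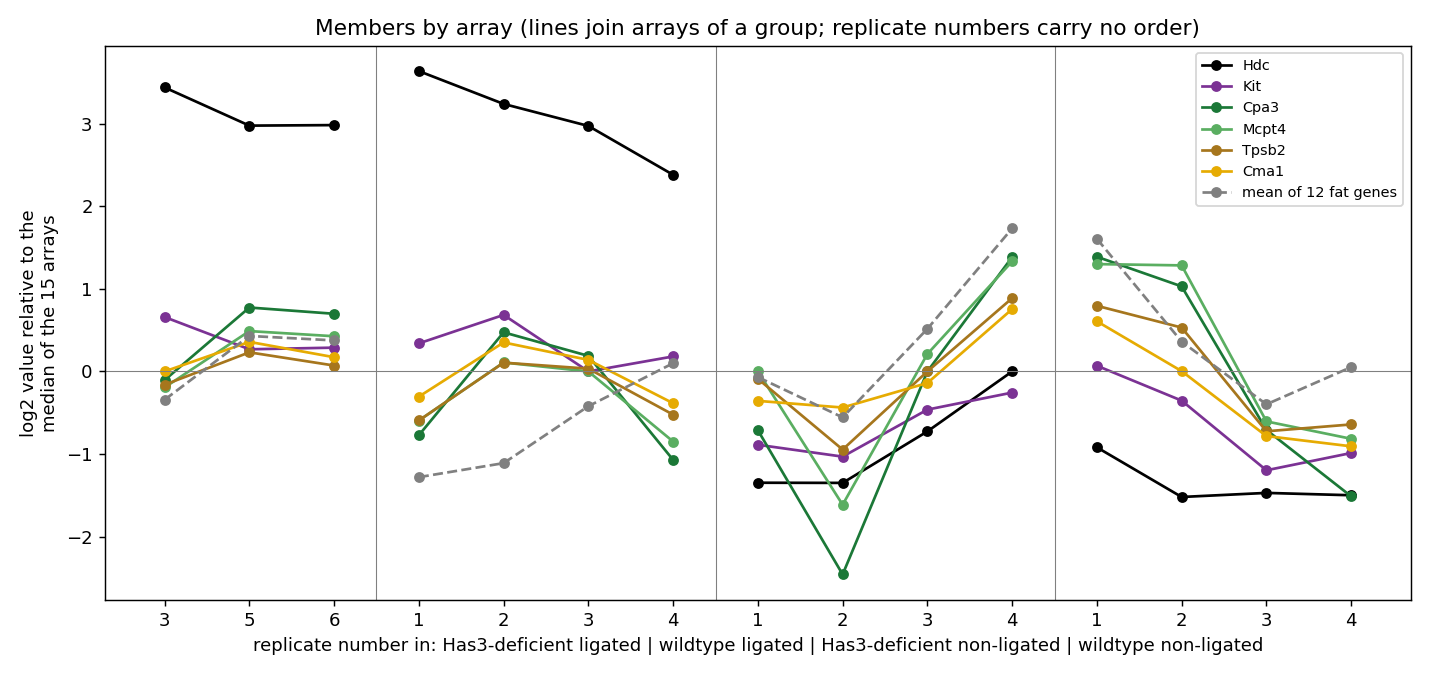
Log2 values of Hdc, Kit and the 4 granule proteases, with the mean of 12 fat genes as a dashed line, in each of the 15 arrays. Lines join arrays of a group, whose numbers carry no order. The proteases rise and fall together, with Cpa3 reaching -2.46 in Has3-deficient non-ligated replicate 2 and 1.39 in replicate 4, while Hdc stays between 2.38 and 3.64 in all ligated arrays.

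Kit was higher in ligated arteries, by less than Hdc. It stood at 0.66, 0.27 and 0.29 in Has3-deficient ligated arrays and at 0.34, 0.68, 0 and 0.18 in wildtype ligated arrays. It stood at -0.89, -1.03, -0.46 and -0.26 in Has3-deficient non-ligated arrays and at 0.07, -0.35, -1.20 and -0.99 in wildtype non-ligated arrays. The Has3-deficient groups did not overlap, whereas wildtype non-ligated replicate 1 lay above wildtype ligated replicate 3. The change was 1.07 ± 0.28 in Has3-deficient arteries (2.09-fold) and 0.92 ± 0.26 in wildtype arteries (1.89-fold). It was 0.94 in Has3-deficient arteries without ligated replicate 3 and 0.79 in wildtype arteries without ligated replicate 2.

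The alpha and beta chains of the IgE receptor varied little. Ms4a2, the beta chain, stayed between -0.17 and 0.19 over the 15 arrays, and Fcer1a, the alpha chain, between -0.11 and 0.15. The changes of Ms4a2 were -0.06 ± 0.08 in Has3-deficient and -0.10 ± 0.07 in wildtype arteries. Those of Fcer1a were 0.10 ± 0.06 and 0.02 ± 0.06. The SD over the 15 arrays was 0.10 for Ms4a2 and 0.07 for Fcer1a, below the median of 0.157 over all genes. Probe sets that vary this little can also be near background, which centred values cannot show.

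The fit across all genes is a test for genes outside the members only. As a description, Hdc and Kit of the 8 members lay past its threshold (limma adjusted p under 0.05) as higher on ligation in each genotype, and none as lower. Kit lay short of it in the 2 settings without a ligated array given above. Over all 22180 genes 10.2% passed as higher and 8.08% as lower in Has3-deficient arteries, and 13.2% and 14.6% in wildtype arteries. No member lay past it between genotypes, where 0.0% of all genes passed in ligated and 0.0857% in non-ligated arteries, nor in the difference of the ligation responses, where 0.0% passed. The members were chosen with these contrasts known, so these counts support nothing.

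Set against the mean of the 7 other members in the same array, Hdc stood at 2.94 ± 0.41 in Has3-deficient ligated (SD, n = 3), 3.15 ± 0.53 in wildtype ligated, -0.68 ± 0.27 in Has3-deficient non-ligated and -1.28 ± 0.53 in wildtype non-ligated arteries (SD, n = 4 each). This difference thus rose with ligation by 3.62 log2 units in Has3-deficient and by 4.43 in wildtype arteries, from below 0 to above 0. Leaving out each array in turn gave 3.39 to 3.76 in Has3-deficient and 4.17 to 4.60 in wildtype arteries. The share of variance that lay between ligation states ranged widely among the members, which was not tested. Of the variance of Hdc 95.7% lay between ligated and non-ligated arrays and 3.59% within the 4 groups. For Kit these shares were 67% and 32.6%, for Ms4a2 17.6% and 81.5%, and for Fcer1a 14.5% and 76.8%. For the proteases the share within groups was 90.4% for Cpa3, 89.2% for Cma1, 90.9% for Mcpt4 and 95.7% for Tpsb2, against a median of 63.8% over all genes.

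Within a ligation state the 4 proteases varied together. Since ligation splits the arrays into separate clusters, correlations were taken within the 7 ligated and the 8 non-ligated arrays, each pooling both genotypes, for 56 pairs of members in all. The permutations shuffled arrays freely across genotypes and took them as independent. The members were chosen with earlier results of these arrays known, so each p here and for the Hdc, Kit and Fcer1a pairs is a description. Cpa3 and Mcpt4 had r = 0.993 in ligated arrays (exact two-sided permutation p = 0.000198, adjusted 0.00463; rho = 1.0, exact permutation p = 0.000397, adjusted 0.0111) and 0.976 without the 2 arrays farthest from the median. In non-ligated arrays they had r = 0.986 (exact permutation p = 9.9e-05, adjusted 0.00463; rho = 0.952, exact permutation p = 0.00114, adjusted 0.0160) and 0.971 without the farthest 2. Over all 12 protease pairs of both states r ran from 0.828 to 0.993, and every one had an adjusted exact permutation p under 0.05, at most 0.0396. Without the farthest 2 arrays r ran from 0.669 to 0.981. In every pair these arrays were chosen only by the gene that comes earlier in the opening list of members. Extreme values of the other gene were not considered.

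For Hdc no pair passed the same threshold at this number of arrays. Its 14 pairs with other members had r from -0.555 to 0.546 in ligated arrays and from 0.268 to 0.776 in non-ligated arrays. None had an adjusted exact permutation p under 0.05. By r the closest was Cma1 in non-ligated arrays, with r = 0.776 (exact permutation p = 0.0201, adjusted 0.0536) and 0.785 without the farthest 2 arrays. Its rho was 0.595 (exact permutation p = 0.132, adjusted 0.218). By rho the closest was Kit in ligated arrays, at 0.821 (exact permutation p = 0.0341, adjusted 0.0956). That pair had r = 0.546 (exact permutation p = 0.208, adjusted 0.324) and 0.861 without the farthest 2 arrays. With Cpa3, Hdc had r = 0.107 in ligated arrays (exact permutation p = 0.813, adjusted 0.916; rho = -0.0357, exact permutation p = 0.963, adjusted 1.0) and r = 0.570 in non-ligated arrays (exact permutation p = 0.132, adjusted 0.238; rho = 0.429, exact permutation p = 0.299, adjusted 0.430). Without the 2 arrays farthest from the median r was -0.701 and 0.441. Whether these correlations differ from those among the proteases was not tested.

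Kit followed the proteases in non-ligated arrays, with r of 0.874 with Cpa3, 0.908 with Cma1, 0.885 with Mcpt4 and 0.930 with Tpsb2, and adjusted exact permutation p from 0.00926 to 0.0272. Without the 2 arrays farthest from the median of the protease, r ran from 0.864 to 0.951. In ligated arrays the same pairs had r from 0.0762 to 0.222, none with an adjusted exact permutation p under 0.05. The difference between the states was not tested. Fcer1a, despite its narrow range, also varied with some members. In ligated arrays it had r = 0.878 with Cma1 and 0.837 with Tpsb2 (adjusted exact permutation p = 0.0304 and 0.0468). Without the farthest 2 arrays r was 0.687 and 0.642. With Ms4a2 it had r = 0.828 in non-ligated (adjusted exact permutation p = 0.0396) and -0.322 in ligated arrays. Its other pairs with the proteases had r from 0.682 to 0.810 and did not pass.

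**Figure D3:**
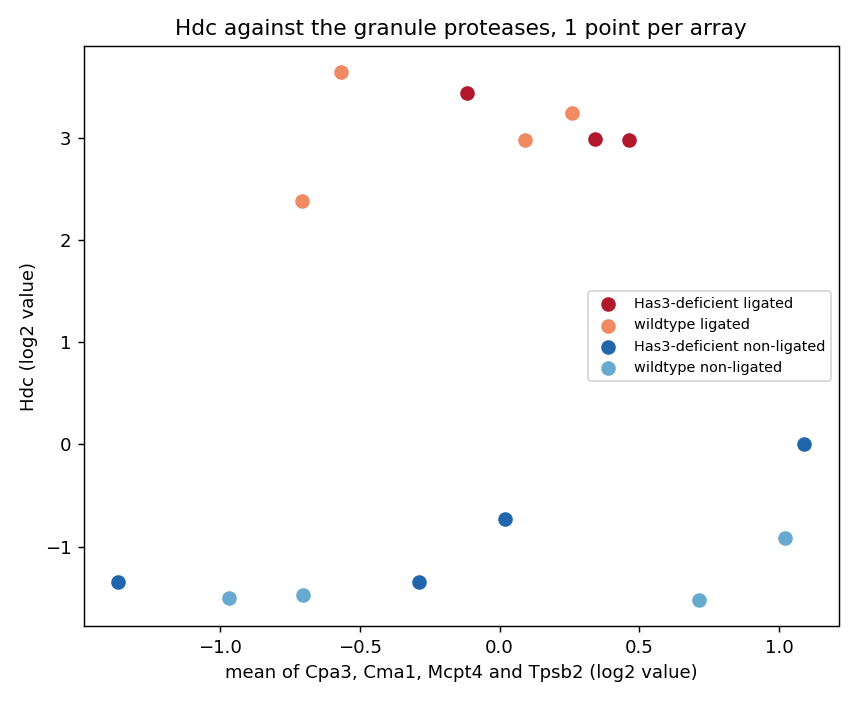
Hdc on the vertical axis against the mean of Cpa3, Cma1, Mcpt4 and Tpsb2 on the horizontal axis, both as log2 values, with 1 point for each of the 15 arrays and the 4 groups in colour. The ligated arrays form a band at Hdc values of 2.38 to 3.64 and the non-ligated arrays a band at -1.52 to 0. The protease means overlap, from -0.71 to 0.46 in ligated and from -1.36 to 1.09 in non-ligated arrays.

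Among all genes, the patterns most like Cpa3 over the 15 arrays were those of Mcpt4 (r = 0.957) and Tpsb2 (r = 0.939), with Cma1 in place 5 (r = 0.849). As deviations from the 4 group means the values were 0.985 for Mcpt4, 0.969 for Tpsb2 and 0.909 for Cma1, the last in place 6. Outside the members, Clic6 (r = 0.858), Cdkn2c, Mtx2, Tspan18, Pts, Idh1, Smim4 and Gys1 (r = 0.825) were most like Cpa3 over the arrays. By deviations they were Zfp982 (r = 0.954), Clic6, Gpr141b, Nipsnap2, Emc2, Eif4e3, Eif3l and Dpp4 (r = 0.890). By likeness to Cpa3, Hdc took place 4521 over the arrays (r = 0.195) and place 1355 by deviations (r = 0.577).

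The genes most like Hdc over the 15 arrays were Cd14 (r = 0.997), the co-receptor for bacterial endotoxin, Acod1, Il1r2, Clec4e, Cxcl2, Tarm1, Ccl3 and Tnf (r = 0.994). Of these, Cd14 is in the macrophage list and Il1r2 in the neutrophil list described below. By deviations from the group means they were Cd14 (r = 0.980), Chd7, Acod1, Ptpmt1, Tnf, Hcar2, Stxbp2 and Hccs (r = 0.902). The arrays share ligation state and dissection, and these r are descriptions over 15 arrays. Of the members, Kit took place 1433 by likeness to Hdc over the arrays and Cpa3 place 7471. By deviations the r with Hdc was 0.653 for Kit (place 629), 0.589 for Cma1 (place 1094), 0.577 for Cpa3 (place 1169), 0.532 for Mcpt4 (place 1590) and 0.521 for Tpsb2 (place 1711).

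Cd14 stood at 3.26, 2.99 and 2.78 in Has3-deficient ligated arrays and at 3.48, 3.31, 2.98 and 2.53 in wildtype ligated arrays. It stood at -1.24, -1.23, -0.53 and 0 in Has3-deficient non-ligated arrays and at -0.44, -1.0, -1.07 and -1.10 in wildtype non-ligated arrays. In each wildtype group the array highest in Hdc was the array highest in Cd14, and the same held for Has3-deficient ligated replicate 3 and non-ligated replicate 4.

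Most listed markers of neutrophils and macrophages rose with Hdc. Of 14 measured neutrophil genes 9 passed as higher in each genotype, with a median change of 2.92 in Has3-deficient and 2.45 in wildtype arteries, where the median over all genes was -0.03 and 0.01. In Has3-deficient arteries 1 passed as lower, and this call was lost without non-ligated replicate 1 or 2 or any 1 of the 3 ligated replicates. The neutrophil genes Camp, Elane, Mpo, Ltf and Ngp showed no such rise, with group means between -0.13 and 0.18. In Has3-deficient arteries Camp averaged -0.10 with ligation and 0.10 without it. Il1r2 rose by 3.96 ± 0.30 in Has3-deficient arteries (limma adjusted p = 3.89e-07) and by 4.10 ± 0.28 in wildtype arteries (limma adjusted p = 9.8e-08). S100a8, a calcium-binding protein of neutrophils, rose by 3.58 ± 0.34 and 4.06 ± 0.31, Csf3r, the receptor for granulocyte colony-stimulating factor, by 3.93 ± 0.31 and 3.91 ± 0.28, and the chemokine receptor Cxcr2 by 3.83 ± 0.30 and 3.56 ± 0.28 in the same order. Of 15 macrophage genes 14 rose in each genotype, among them Mpeg1 by 3.91 ± 0.21 and 4.21 ± 0.19, Cd14 by 3.76 ± 0.29 and 3.98 ± 0.27, Itgam by 3.83 ± 0.26 and 3.62 ± 0.24 and Cd68 by 3.52 ± 0.32 and 3.24 ± 0.30.

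The neutrophil list mean ran from 1.38 to 1.73 in Has3-deficient ligated, from 1.16 to 1.86 in wildtype ligated, from -0.62 to -0.10 in Has3-deficient non-ligated and from -0.71 to -0.14 in wildtype non-ligated arrays. The macrophage list mean ran from 1.77 to 1.94, from 1.79 to 2.03, from -1.12 to -0.10 and from -0.57 to -0.12 in the same groups. Neither overlapped between ligated and non-ligated arrays. Their part in the rise of Hdc was not tested.

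Beyond the members, 61 further genes of mast cell function and histamine handling were measured, of 67 listed. On ligation 22 passed as higher and 2 as lower in Has3-deficient arteries, and 23 as higher and 7 as lower in wildtype arteries (limma, adjusted p under 0.05). Over all genes 10.2% passed as higher and 8.08% as lower in Has3-deficient arteries and 13.2% and 14.6% in wildtype arteries, and the list counts that follow stand beside these shares. The median change of the 61 was 0.05 in Has3-deficient and 0.07 in wildtype arteries. Many of these genes are shared with other leukocytes. The macrophage and neutrophil list means given above were higher in ligated arrays, and their part in these counts was not tested.

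Of 11 other granule genes, 2 (18.2%) passed as higher in each genotype, against 10.2% and 13.2% of all genes, so nothing is read from the count. Srgn, the proteoglycan core of leukocyte granules, rose by 1.45 ± 0.11 in Has3-deficient (limma adjusted p = 3.74e-07) and 1.20 ± 0.10 in wildtype arteries (limma adjusted p = 7.71e-07). Ndst2, an enzyme of heparin sulfation, rose by 0.33 ± 0.10 and 0.48 ± 0.10. In Has3-deficient arteries its call was lost without non-ligated replicate 3 or 4 or ligated replicate 3 or 5 (change 0.26 to 0.32, limma adjusted p 0.0717 to 0.158). The remaining granule genes did not pass. The tryptase Tpsab1, named after its values were seen, had changes of -0.10 ± 0.07 and 0.01 ± 0.06.

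Of 13 genes of receptors and signalling, 7 passed as higher in Has3-deficient arteries, and 8 as higher and 2 as lower in wildtype arteries. The lower count in wildtype arteries was 1 without non-ligated replicate 3 or 4 or ligated replicate 1, 3 or 4. Lcp2, an adaptor protein, rose by 2.99 ± 0.18 in Has3-deficient and 2.66 ± 0.17 in wildtype arteries. Fcer1g, the gamma chain that the IgE receptor shares with receptors of other leukocytes, rose by 2.90 ± 0.23 and 2.62 ± 0.21, whereas Ms4a2 and Fcer1a kept to the narrow ranges given above. The phosphatase Inpp5d rose by 2.41 ± 0.11 and 2.25 ± 0.10 and the kinase Syk by 2.13 ± 0.11 and 2.16 ± 0.10. The mast cell receptors Mrgprb1 and Mrgprb2, named after their values were seen, had changes of 0.11 ± 0.23 and -0.15 ± 0.13 in Has3-deficient and -0.37 ± 0.21 and 0.02 ± 0.12 in wildtype arteries, and neither passed.

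**Figure D4:**
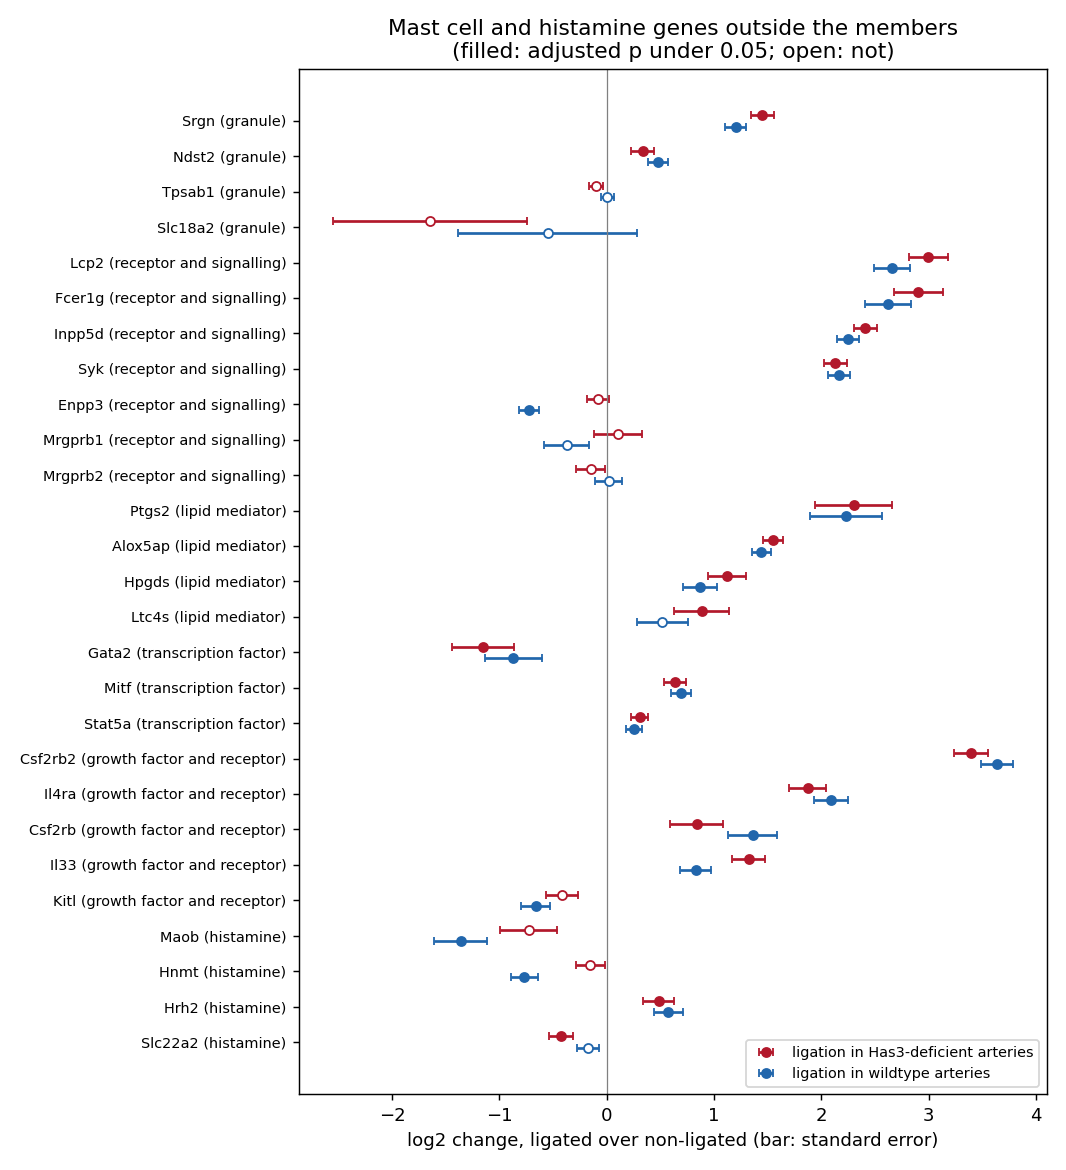
Log2 change on ligation, with its standard error, for named genes of mast cell function and histamine handling outside the members, in Has3-deficient arteries (red) and wildtype arteries (blue). Filled points have an adjusted p under 0.05. Signalling genes such as Lcp2 (2.99 and 2.66) lie far to the right, and the tryptase Tpsab1 lies at 0 within its error in wildtype arteries.

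Enpp3, an ectoenzyme of basophils and mast cells that was named after its values were seen, was the single gene of the 61 to pass between genotypes. The difference of Has3-deficient from wildtype non-ligated arteries was -0.61 ± 0.10 log2 units (limma adjusted p = 0.0476). The call was lost on leaving out any 1 of 12 arrays, 6 of them non-ligated (Has3-deficient replicates 1 to 3 and wildtype replicates 2 to 4) and 6 ligated (Has3-deficient replicates 5 and 6 and wildtype replicates 1 to 4), with changes of -0.66 to -0.53 and limma adjusted p from 0.0505 to 0.121. On ligation it fell by 0.72 ± 0.10 in wildtype arteries (limma adjusted p = 5.04e-05), and its change was -0.08 ± 0.10 in Has3-deficient arteries (limma adjusted p = 0.659). The difference of these responses was 0.64 ± 0.14 and did not pass (limma adjusted p = 0.440).

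Of 6 enzymes of lipid mediators, 5 passed as higher in Has3-deficient and 4 in wildtype arteries. Ptgs2, the inducible cyclooxygenase, rose by 2.30 ± 0.36 and 2.23 ± 0.33, and Alox5ap, which helps to make leukotrienes, by 1.55 ± 0.10 and 1.44 ± 0.09. Hpgds, the haematopoietic prostaglandin D synthase, rose by 1.12 ± 0.17 and 0.87 ± 0.16. Ltc4s, which makes leukotriene C4, rose by 0.88 ± 0.26 in Has3-deficient arteries (limma adjusted p = 0.0274). That call was lost without non-ligated replicate 1 or 2 or without any 1 of the 3 ligated replicates (change 0.73 to 0.95, limma adjusted p 0.0526 to 0.124). In wildtype arteries its change was 0.52 ± 0.24 (limma adjusted p = 0.132), and it passed without non-ligated replicate 1 or ligated replicate 4 (change 0.69 to 0.70, limma adjusted p 0.0403 to 0.0454).

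Of 8 transcription factors, 2 passed as higher and 1 as lower in each genotype. Gata2, which mast cells and endothelial cells both use, fell by 1.15 ± 0.29 in Has3-deficient and by 0.87 ± 0.27 in wildtype arteries (limma adjusted p = 0.0115 and 0.0242). In wildtype arteries the call was lost without non-ligated replicate 2 or 3 or ligated replicate 1 or 4 (change -0.85 to -0.75, limma adjusted p 0.0568 to 0.0747). Mitf rose by 0.63 ± 0.10 and 0.69 ± 0.09. Stat5a rose by 0.31 ± 0.08 and 0.25 ± 0.08. Its call was lost in Has3-deficient arteries without ligated replicate 3 (0.24, limma adjusted p = 0.0968), and in wildtype arteries without non-ligated replicate 3 or 4 or ligated replicate 1 or 2 (0.23 at the lowest and highest, limma adjusted p 0.0563 to 0.0626).

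Of 13 growth factors and their receptors, 5 passed as higher in Has3-deficient arteries, and 6 as higher and 2 as lower in wildtype arteries. Csf2rb2 rose by 3.39 ± 0.16 and 3.63 ± 0.15, Il4ra by 1.87 ± 0.17 and 2.09 ± 0.16, and Il33, an alarm cytokine that acts on mast cells, by 1.32 ± 0.15 and 0.83 ± 0.14. Csf2rb, the shared receptor chain for interleukin 3, rose by 0.84 ± 0.25 and 1.36 ± 0.23. In Has3-deficient arteries its call was lost without non-ligated replicate 2 or 3 or ligated replicate 3 (change 0.39 to 0.84, limma adjusted p 0.0550 to 0.0636). Kitl, the ligand of Kit, was named after its values were seen. It fell by 0.66 ± 0.14 in wildtype arteries (limma adjusted p = 0.00201), and its change was -0.42 ± 0.15 in Has3-deficient arteries (limma adjusted p = 0.0657), where it passed without wildtype non-ligated replicate 2 or wildtype ligated replicate 1 (limma adjusted p 0.0366 and 0.0311). Without the first of these arrays 2 genes of the list passed as lower in Has3-deficient arteries.

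Of 11 other genes of histamine handling, 1 passed as higher and 1 as lower in Has3-deficient arteries, and 1 as higher and 2 as lower in wildtype arteries. Hrh2, the H2 receptor, rose by 0.48 ± 0.15 and 0.57 ± 0.14. In Has3-deficient arteries its call was lost without non-ligated replicate 1, 2 or 4 or any 1 of the 3 ligated replicates (change 0.41 to 0.53, limma adjusted p 0.0540 to 0.146). Hnmt, which inactivates histamine by methylation, had a change of -0.15 ± 0.13 in Has3-deficient arteries (limma adjusted p = 0.515) and fell by 0.77 ± 0.12 in wildtype arteries (limma adjusted p = 0.000308). Maob, which oxidises methylated histamine, had a change of -0.73 ± 0.27 in Has3-deficient arteries (limma adjusted p = 0.0771) and fell by 1.36 ± 0.25 in wildtype arteries (limma adjusted p = 0.000729). Maob passed in Has3-deficient arteries without non-ligated replicate 1 or 2 (change -0.92 to -0.87, limma adjusted p 0.0467 and 0.0249). No gene passed in the difference of the ligation responses.

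Slc22a2, a transporter of organic cations, fell by 0.42 ± 0.11 in Has3-deficient arteries (limma adjusted p = 0.0185), and the call was lost without ligated replicate 3 or 6 (change -0.40 to -0.31, limma adjusted p 0.0676 to 0.111). Its change in wildtype arteries was -0.17 ± 0.11. Slc18a2, the transporter that loads histamine and other amines into vesicles and was named after its values were seen, was high in the arrays with neuronal genes. It stood at 0.79, -0.33, 4.63 and 1.40 in Has3-deficient non-ligated arrays and at -0.08, 2.39, -0.17 and -0.30 in wildtype non-ligated arrays. The neuronal mean was 1.18, -0.19, 4.45 and 1.77 in the first group and -0.23, 2.51, -0.36 and -0.32 in the second. All ligated arrays of Slc18a2 lay between -0.42 and 0.34. Its part in the histamine list was not tested.

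Of 6 basophil genes, 2 passed as higher and 1 as lower in Has3-deficient arteries, where 10.2% and 8.08% of all genes did. In wildtype arteries 1 passed as higher and 1 as lower (16.7% each), where 13.2% and 14.6% of all genes did. Nothing is read from these counts. Il3ra, the interleukin 3 receptor chain, rose by 0.56 ± 0.10 in Has3-deficient and 0.68 ± 0.09 in wildtype arteries, and Gata2 fell as given above. Prss34, a basophil protease, rose by 0.24 ± 0.07 in Has3-deficient arteries (limma adjusted p = 0.0329), and the call was lost without non-ligated replicate 3 or 4 or any 1 of the 3 ligated replicates (change 0.21 to 0.27, limma adjusted p 0.0562 to 0.114). Its change in wildtype arteries was 0.12 ± 0.07.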

How the data were processed

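Arrays of 15 carotid artery samples were analysed. Per the labels' protocols, 100 ng of total RNA was amplified, converted to cDNA and labelled with biotin for each array. The authors' deposited values are on a log2 scale for 33793 probe sets, centred so that each probe set has a median of 0 over the arrays. Array medians lay between -0.0014 and 0.0167. How the arrays were normalized, and with which software, is not given in the sources used here. The base of the logarithm was inferred from the size of the values.

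Of the probe sets, 23521 carried 1 gene symbol, 1814 several and 8458 were unlisted. Probe sets of a gene were averaged (1082 genes had several), giving 22180 genes. The 4 groups shared 1 linear model in limma 3.58.1 (R 4.3.3; 11 residual and 2.69 prior degrees of freedom). The threshold was an adjusted p of 0.05, by Benjamini-Hochberg across the whole table. The fit was tested on simulated data.

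The members and the 13 other gene lists were chosen with earlier results of these data known. Genes were named by rule: the members; up to 4 passing genes of each list with the largest change on ligation, or 2 with the lowest p where none passed; and the 8 genes most like Hdc and Cpa3 by each measure, without predicted, microRNA, snoRNA, olfactory receptor and antigen receptor genes. Enpp3, Kitl, Mrgprb1, Mrgprb2, Tpsab1 and Slc18a2 were added after their values were seen. The alternatives were quantile normalization, common medians, array weights, the compared groups alone, a block for replicate number, a robust prior, other treatments of probe sets and leaving out each array. Fits without arrays high in fat or neuronal genes, or with these list means as covariates, were added after seeing the data.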

Additional observations from a re-analysis of the deposited data

Results flagged for a closer look

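Single arrays stood apart from the rest of their group of 4 by Dixon's criterion at the 95% level in 13 of 180 groups tested over 60 genes and summaries, where chance flags about 1 in 20. Wildtype non-ligated replicate 1 was high in Hdc, at -0.92 against -1.52 to -1.47 in the other arrays. It was also high in Cd14 (-0.44 against -1.10 to -1.0), Syk (0.0 against -0.11 to -0.09) and Ltc4s (0.23 against -0.53 to -0.43). Wildtype non-ligated replicate 2 was high in the amine transporter Slc18a2 (2.39 against -0.30 to -0.08) and in the neuronal genes Chgb (1.86) and Stmn2 (2.32). Wildtype non-ligated replicate 3 was high in Cxcr2 (0.0 against -1.16 to -1.09) and in Tpsab1 (0.12 against -0.08 to -0.05). Wildtype ligated replicate 1 was high in Inpp5d (2.25 against 1.98 to 2.00) and in Cd68 (2.80 against 2.64 to 2.66). Has3-deficient non-ligated replicate 3 was high in Il4ra (0.0 against -0.48 to -0.40), and replicate 4 of that group was high in the fat gene Pnpla2 (1.09).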

How the results depend on the processing

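Of 992 changes of members over all comparisons and settings, 974 moved by less than the spread between arrays. Of 1122 changes of named genes on ligation under planned settings, 1067 in Has3-deficient and 1094 in wildtype arteries kept their direction and their side of the threshold, 47 and 26 lost the call and 8 and 2 gained it. Of 153 such changes under the settings added for fat and neuronal genes, 15 and 4 lost the call and 2 and 4 gained it. Under quantile normalization Hdc rose by 3.19 in Has3-deficient and 3.49 in wildtype arteries, and its change beyond the mean of the 7 other members was 2.94 and 3.65. Over the arrays left out in turn this difference ran from 3.39 to 3.76 and from 4.17 to 4.60. The count of genes that differ between genotypes was the least stable. In non-ligated arteries 19 genes passed, against 43 with quantile normalization, 9 with array weights, 0 with the compared groups alone and 7 with the probe set of largest SD. It was 0 to 280 over the arrays left out, 163 without the arrays high in neuronal genes, 116 without those high in fat genes and 201 with both list means as covariates. In ligated arteries 0 genes passed in limma (910 at an unadjusted p under 0.05), against 1 with array weights and 1 with the compared groups alone. The causes were not tested. The labels do not say whether same-numbered arrays share an animal. Deviations of same-numbered arrays correlated by 0.03 to 0.16 between wildtype ligated and non-ligated arteries. The value was -0.06 between Has3-deficient ligated and non-ligated replicate 3, and -0.40 to -0.24 between the non-ligated genotypes. These values cannot settle whether the arrays are paired. With a replicate block 4012 genes passed for ligation in Has3-deficient arteries and 6010 in wildtype arteries, against 4055 and 6173 without it, and 7 for genotype in non-ligated arteries. Signal over background is lost in centred values, so no gene could be judged as near background.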

Other observations

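Markers of other parts of the dissected tissue are given as values. Of 10 artery genes, 7 passed as lower and 2 as higher on ligation in each genotype. Myh11, the smooth muscle myosin, fell by 0.87 ± 0.17 in Has3-deficient and by 1.29 ± 0.16 in wildtype arteries, Tek by 0.86 ± 0.18 and 1.45 ± 0.17, and Cnn1 by 0.68 ± 0.16 and 1.19 ± 0.15. The call of Cnn1 was lost in Has3-deficient arteries without ligated replicate 3 (-0.56, limma adjusted p = 0.0512), and the count of lower genes there was 4 without that array. Kdr, an endothelial receptor, rose by 1.19 ± 0.38 and 1.15 ± 0.35. Its call was lost in Has3-deficient arteries without wildtype non-ligated replicate 2, Has3-deficient non-ligated replicate 1, 2 or 3, wildtype ligated replicate 1, 2 or 4, or any Has3-deficient ligated replicate (change 0.85 to 1.26, limma adjusted p 0.0509 to 0.112). In wildtype arteries it was lost without non-ligated replicate 3 or 4 or ligated replicate 3 (change 0.94 to 1.02, limma adjusted p 0.0691 to 0.0766).

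Of 11 fibroblast genes, 4 rose and 4 fell in Has3-deficient arteries, and 1 rose and 6 fell in wildtype arteries. The 4 higher genes became 1 without Has3-deficient ligated replicate 5 or 6 or non-ligated replicate 3. Lum, a matrix proteoglycan, rose by 1.07 ± 0.12 and 0.69 ± 0.11, while Clec3b fell by 0.77 ± 0.15 and 1.04 ± 0.14, Gsn by 0.74 ± 0.11 and 0.98 ± 0.10, and Scara5 by 0.65 ± 0.12 and 0.94 ± 0.11.

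Of 12 fat genes, 0 passed with limma in Has3-deficient arteries, also at an unadjusted p under 0.05 (1 passed as higher without non-ligated replicate 4), and 4 passed as lower in wildtype arteries. Retn fell by 1.57 ± 0.33 in wildtype arteries. Plin1 (-1.37 ± 0.40), Cidec (-1.52 ± 0.48) and Pnpla2 (-0.85 ± 0.26) each lost the call without non-ligated replicate 1 or 2 or ligated replicate 1 or 2, and Pnpla2 also without ligated replicate 3 (limma adjusted p 0.0513 to 0.0919 over the 3 genes). Their changes in Has3-deficient arteries were -0.70 ± 0.36, -0.61 ± 0.43, -0.73 ± 0.52 and -0.49 ± 0.28 for Retn, Plin1, Cidec and Pnpla2.

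Of 11 neuronal genes, 0 passed with limma in either genotype, with 5 in Has3-deficient and 0 in wildtype arteries at an unadjusted p under 0.05. Chgb had changes of -1.67 ± 0.67 and -0.42 ± 0.62 and passed in Has3-deficient arteries without non-ligated replicate 2 (-2.34, limma adjusted p = 0.00693), where 3 neuronal genes passed as lower. Stmn2 had changes of -1.78 ± 0.76 and -1.15 ± 0.70.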
